A study of Mus musculus with 12 samples.

Results

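The genes described here are 10 markers of the glia of the retina: Gfap, Pax2, Aldh1l1, S100b and Aqp4 of astrocytes, Glul, Rlbp1 and Slc1a3 of Müller glia, and Vim and Fabp7, which both kinds of glia and their precursors use. They were taken by name from the deposited tables, which list 38720 genes, and all 10 were found in both. RNA was measured in the retina of newborn (P0) mice, C57/BL6 by the strain label, that were either mKO mice, which carry floxed Ezh2 and Cre recombinase under the control of Math5, or wild type (WT). Ezh2 is the enzyme that places the repressive mark H3K27me3 on histones, and the floxed exons encode its catalytic SET domain. Retinas were dissociated and parted with magnetic beads against CD90 (Thy-1) into a captured fraction, retinal ganglion cells (RGCs), and the remaining cells (non-RGCs), and 3 libraries were made for each genotype and fraction, 12 in all. Math5 is used by progenitors that give rise to RGCs, Cre driven by it is known to act in only part of the RGCs and in few other retinal cells, and the labels do not say which libraries came from the same pups.

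Astrocytes of the retina are not made in the retina. They enter from the optic nerve head around birth as Pax2-positive precursors, spread over the inner surface along the RGC axons, and switch on Gfap as they mature. Müller glia, by contrast, are the last cells that retinal progenitors make, so that at birth the genes later used by Müller glia, such as Slc1a3, Vim and Fabp7, are read mostly from progenitors.

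Reads of each library were recovered from the deposited group means. The libraries carry no replicate number, so they are lettered within each group by depth (A holds the most reads and C the fewest), and a letter does not join libraries of different groups. They held 7139633 to 13014004 reads on genes. Normalised reads are reads divided by the size factor of the library, set by the authors separately in each fraction. The sums of 12 RGC genes were 32395 to 35033 normalised reads in WT RGC, 23384 to 24514 in mKO RGC, 5635 to 5968 in WT non-RGC and 6008 to 8209 in mKO non-RGC libraries, so the captured fraction was enriched in RGCs. The sums do not measure the RGCs left in non-RGCs, where the genes differed widely. In WT non-RGCs Tubb3 and Stmn2 had means of 2056 and 1128. Pou4f2 and Pou4f3 had 51.9 and 8.73 there, 169 and 51.1 in mKO non-RGCs, and 2818 and 1317 in WT RGCs. Thy1, the bead target, had 67.0, 79.6 and 93.2 normalised reads in the mKO non-RGC libraries against 4.51, 1.94 and 9.38 in the WT ones. The 6 microglia genes were also captured, with sums of 1140 to 2803 in the RGC fraction of both genotypes and 18.8 to 207.5 in the non-RGC fraction. Ezh2 itself had means of 1358 normalised reads in WT and 1424 in mKO RGCs, and of 1982 and 2169 in non-RGCs. No fall of reads over the whole gene was therefore seen. Without WT RGC library C it was higher in mKO RGCs, by 0.25 on the log2 scale (adjusted p = 0.0042 in limma). Reads of the floxed exons alone were not analysed here, so these values do not measure the deletion. The paper reports less Ezh2 in newborn mKO RGCs by qPCR and Western blot, and a changed Ezh2 level in its RNA-seq. WT RGC library C held the most progenitor reads of its group, WT RGC library B and mKO RGC library A the most reads of connective tissue genes, and mKO non-RGC library C was the shallowest.

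The starts of the glial genes differ in how many CG dinucleotides they hold, and promoters dense in CG are those at which the Ezh2 complex is best known to act. Of the 10 genes, 9 had a promoter in the RefSeq table (assembly GRCm38.p6). In the 250 bases before the start, the median over 32841 promoters was 6 CG, with 1 at the 10th percentile and 25 at the 90th. The windows of 3 genes that overlap no annotated exon are written here, that of Pax2, which fell in both fractions, and those of Gfap and S100b, which passed in no comparison but stood out in single mKO libraries, 5′ to 3′ on the strand of the gene with each CG in capitals.

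Gfap, chr11:102897201-102897450, minus strand: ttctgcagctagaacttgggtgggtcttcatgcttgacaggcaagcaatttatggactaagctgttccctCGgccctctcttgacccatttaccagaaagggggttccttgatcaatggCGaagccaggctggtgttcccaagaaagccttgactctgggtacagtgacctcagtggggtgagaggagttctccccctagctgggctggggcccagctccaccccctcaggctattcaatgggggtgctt

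S100b, chr10:76253586-76253835, plus strand: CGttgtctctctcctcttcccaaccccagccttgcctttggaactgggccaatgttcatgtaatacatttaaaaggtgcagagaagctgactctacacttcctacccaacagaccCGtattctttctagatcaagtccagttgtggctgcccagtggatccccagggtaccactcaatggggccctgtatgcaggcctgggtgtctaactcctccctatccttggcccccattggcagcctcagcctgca

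Pax2, chr19:44755502-44755751, plus strand: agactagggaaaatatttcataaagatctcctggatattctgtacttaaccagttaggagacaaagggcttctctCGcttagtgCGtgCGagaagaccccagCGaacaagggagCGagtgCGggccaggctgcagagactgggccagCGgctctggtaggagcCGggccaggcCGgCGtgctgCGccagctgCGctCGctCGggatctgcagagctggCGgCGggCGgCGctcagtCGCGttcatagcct

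The Gfap and S100b windows each hold 2 CG, and 81.2% of promoters hold at least as many. The Pax2 window holds 20 CG, and 18% of promoters hold at least as many. Pax2 has a further upstream start with 5 CG and a later start with 25. Among the other members, Glul had 15 CG, Vim 8, Aldh1l1 7, Rlbp1 6, Fabp7 4 and Slc1a3 2. The letters TTCNNNGAA, the sequence that STAT3, a factor upstream of Gfap in glia, can bind, were searched; the sequence reads the same on both strands. A match stood in the Slc1a3 window and in the upstream Pax2 window and not in the Gfap window, and 7.0% of all promoters hold one. A match is a string of letters and was not tested as a bound site. The search covered only the 250 bases before each start, so it cannot show whether a gene has such a site elsewhere.

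Levels between genes were compared as RPKM, in which reads are scaled to the exon length of the gene and to the reads on genes of the library. The genes fell into a high and a low set that were the same in all 4 groups apart from 1 library. Glul, Fabp7, Vim, Slc1a3 and Rlbp1 lay between 9.62 and 107 RPKM in every library. Gfap, Aldh1l1, Pax2 and S100b lay between 0.285 and 6.01 RPKM, apart from Gfap in mKO RGC library A at 14.6 RPKM. Aqp4, the water channel of astrocyte end-feet and mature Müller glia, was lowest, with 0.0130 to 0.112 RPKM. In WT non-RGC libraries the order was Glul (85.5 to 90.2 RPKM), Fabp7 (65.0 to 73.7), Vim (36.8 to 42.9), Slc1a3 (27.7 to 33.3) and Rlbp1 (13.1 to 37.9), in which Rlbp1 was not separated from Slc1a3 or Vim by the spread of its libraries. Below them came Pax2 (1.83 to 2.43 RPKM), Aldh1l1 (0.984 to 1.80), Gfap (0.427 to 1.03), S100b (0.425 to 0.776) and Aqp4 (0.0842 to 0.0924), in which Aldh1l1, Gfap and S100b overlapped with their neighbours.

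**Figure D1:**
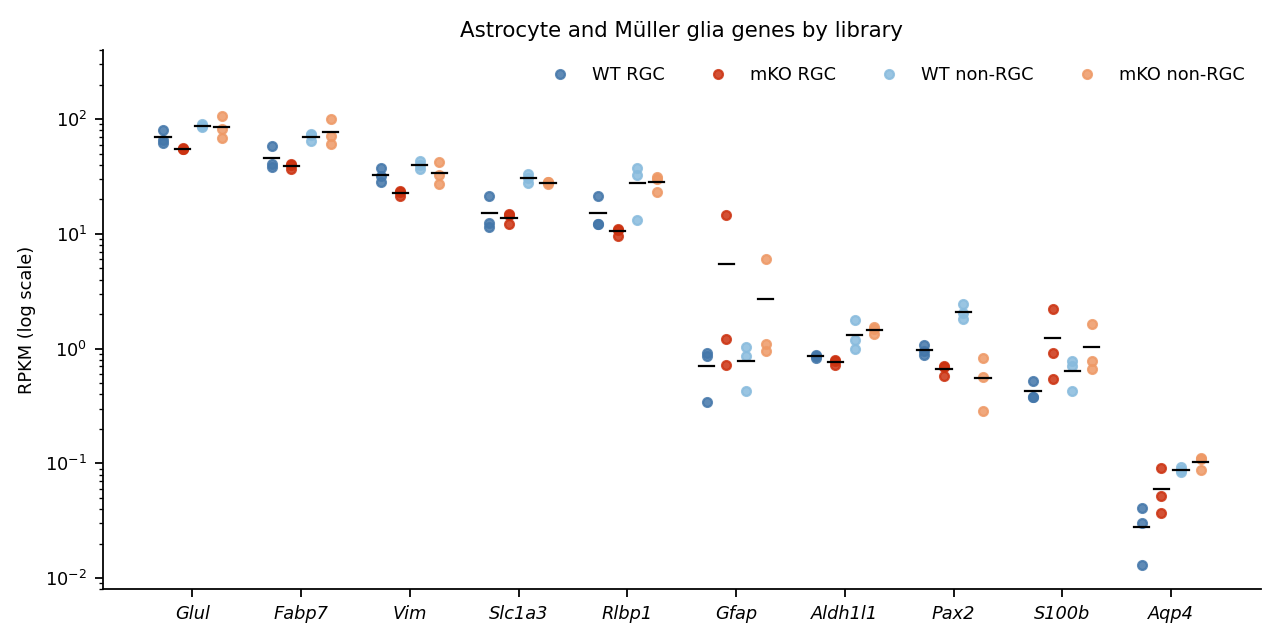
Levels of the 10 glial genes in RPKM on a log scale; each point is 1 library, each bar the mean of the 3 libraries of a group, and colours mark genotype and fraction. Glul is highest and Aqp4 lowest in each group, and single mKO libraries stand above the rest for Gfap (14.6 and 6.01 RPKM).

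In RGCs, mKO was compared with WT. The mKO mice differ from WT in both the floxed Ezh2 alleles and Math5-Cre, which the paper describes as a knock-in. Effects of Ezh2 deletion and of the knock-in therefore cannot be told apart. Of the 9 glial genes that reached a mean of 10 normalised reads in either group, 3 fell in mKO RGCs, namely Vim, Glul and Pax2, and none rose (limma, adjusted p under 0.05). Over all 16085 genes tested, 21.2% fell and 16.3% rose by the same rule, so that 3 of 9 is not far from the share of all genes. At an unadjusted p under 0.05 in limma, 4 of the 9 were lower and 0 higher. Of all 16085 genes tested, 7658 had such a p in either direction. Groups did not overlap, with mKO lower, for 6 of the 9, against 28.2% of all genes tested. The median log2 fold change of the 9 was -0.33 and that of all genes tested was 0.00 to 2 decimals. In bulk samples fewer cells of a type and less RNA per cell cannot be told apart.

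Vim, an intermediate filament protein of progenitors and glia (chromosome 2, 13573927 to 13582826 of mm10), had 1673, 1917 and 2182 normalised reads in WT and 1276, 1253 and 1176 in mKO RGC libraries. Each mKO library lay below each WT library. The log2 fold change was -0.63 ± 0.10 (SE, n = 3 and 3; adjusted p = 0.0032 in limma), a 1.55-fold lower level. It kept this call in every alternative run, leaving out single libraries included, with log2 fold changes from -0.73 to -0.48.

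Glul, glutamine synthetase, with which Müller glia turn glutamate into glutamine (chromosome 1, 153899944 to 153909723), had 2593, 2757 and 3293 normalised reads in WT and 2083, 2119 and 2115 in mKO RGC libraries. The mKO libraries were close to one another and all below WT. The log2 fold change was -0.44 ± 0.09 (SE; adjusted p = 0.0084 in limma). With the trends of each library with GC content and level removed, the difference was -0.01 (adjusted p = 0.94).

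Pax2, the transcription factor of the optic stalk and of astrocyte precursors (chromosome 19, 44756045 to 44837871), had 73.0, 65.1 and 58.4 normalised reads in WT and 42.8, 43.3 and 36.7 in mKO RGC libraries. The groups did not overlap. The log2 fold change was -0.66 ± 0.19 (SE; adjusted p = 0.029 in limma). The call was lost without any single library other than WT RGC library C (adjusted p = 0.072 to 0.097 in limma) and with the GC trend removed (-0.12, adjusted p = 0.71). It was also lost with GC and level trends removed and with scaling to library totals. In all, 9 of 14 alternative fits lost it.

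The other members did not pass in RGCs. Rlbp1, the retinaldehyde-binding protein of Müller glia, had 451, 458 and 787 normalised reads in WT and 367, 376 and 331 in mKO libraries. All mKO libraries were below WT, and the high WT value was that of library C (log2 fold change -0.61 ± 0.21, SE; adjusted p = 0.060 in limma). Without WT RGC library C the difference was -0.35 and passed (adjusted p = 0.0072), and without WT RGC library B it was -0.74 (adjusted p = 0.049).

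Fabp7, the fatty acid-binding protein of radial glia, had 604, 645 and 902 normalised reads in WT and 579, 575 and 533 in mKO RGC libraries (log2 fold change -0.33 ± 0.15, SE; adjusted p = 0.12 in limma). Its groups did not overlap, and its WT library C was again the highest. With the GC trend removed it passed (-0.70, adjusted p = 0.023). Slc1a3, the glutamate transporter GLAST, had 1231, 1347 and 2255 normalised reads in WT and 1412, 1464 and 1206 in mKO libraries. The groups overlapped (log2 fold change -0.19 ± 0.22, SE; adjusted p = 0.52 in limma), and without WT RGC library C the difference was 0.07. Aldh1l1, an enzyme of folate metabolism used as a marker of astrocytes, had 48.7, 47.8 and 49.0 normalised reads in WT and 36.7, 41.5 and 41.4 in mKO libraries, which did not overlap (log2 fold change -0.28 ± 0.18, SE; adjusted p = 0.26 in limma).

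WT RGC library C moved with these values. It was the highest of its group for 7 of the 8 members with a mean of at least 10 there and for 9 of the 10 further Müller and radial glia genes. How often it was the highest over all genes was not counted. Library C also stood apart over genes of every kind. The chi-square of its reads per degree of freedom was 17.96 against library A and 21.35 against B. Between A and B it was 5.023. The sum of 12 progenitor genes was 34507 normalised reads in library C, against 23074 and 23860.4 in the other WT RGC libraries and 19591 to 20249 in mKO RGCs. The mKO sums were below all 3 WT sums, so progenitor genes moved in the same direction as Vim, Glul, Rlbp1 and Fabp7. Their part in the differences of the glial genes was not tested.

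**Figure D2:**
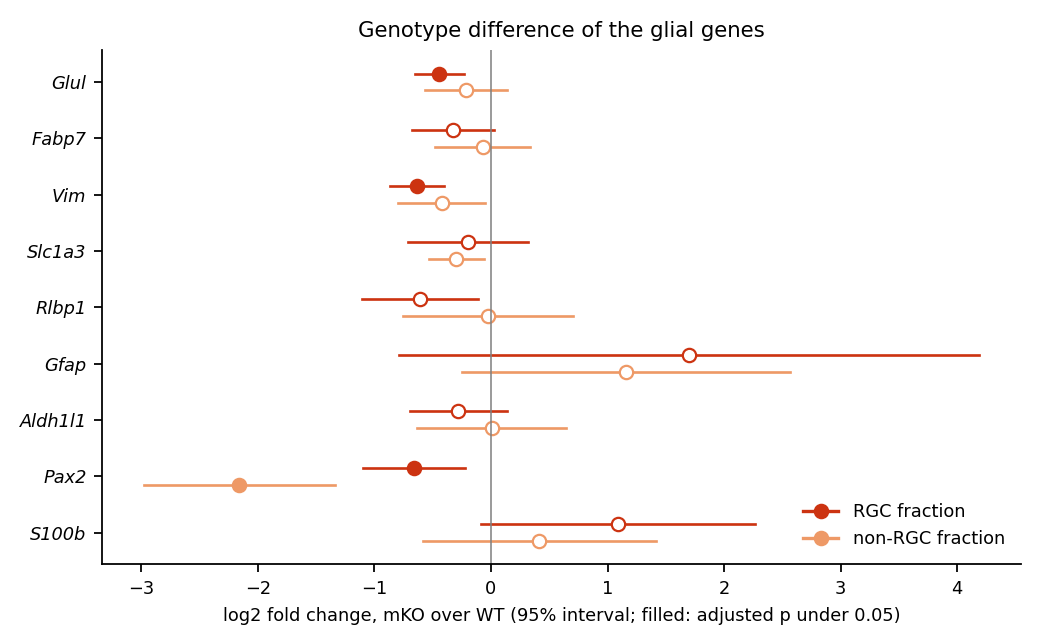
Log2 fold change of mKO over WT with its 95% interval for the 9 glial genes tested, in the RGC and the non-RGC fraction; filled points have an adjusted p under 0.05 in limma. Vim, Glul and Pax2 are filled in RGCs and Pax2 alone in non-RGCs, where its estimate of -2.16 is the lowest of the genes drawn, and the intervals of Gfap and S100b are the widest of the RGC fraction.

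In non-RGCs, the cells that the beads did not capture, 1 of the 9 glial genes tested changed. Pax2 fell, against 6.43% of 15326 genes that fell and 4.18% that rose. At an unadjusted p under 0.05 in limma, 3 were lower and 0 higher. Of all 15326 genes tested, 4580 had such a p in either direction. Pax2 and Slc1a3 had groups that did not overlap, lower in mKO, against 19.2% of all genes tested. The median log2 fold change of the 9 was -0.07 and that of all genes -0.03.

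Pax2 had 120.9, 109.3 and 152.2 normalised reads in WT and 30.1, 44.1 and 15.5 in mKO non-RGC libraries. Even the highest mKO library held less than the lowest WT library by a wide margin. The log2 fold change was -2.16 ± 0.37 (SE; 95% interval -2.98 to -1.34; adjusted p = 0.011 in limma), a 4.47-fold lower level, and 34 of the 15326 genes tested had a lower estimate. Without each library in turn it lay between -2.49 and -1.77 and passed each time (adjusted p = 0.019 to 0.035). With the GC trend removed it was -1.70 (adjusted p = 0.059), and with GC and level trends removed -1.84 (adjusted p = 0.047).

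The difference of the Pax2 effect between the fractions was 1.5 ± 0.45 (SE, log2, RGC effect minus non-RGC effect) with an unadjusted p = 0.0055 and an adjusted p = 0.51 in limma over all genes, and so did not pass. None of the 9 passed that test, and 0.0970% of 16502 genes passed. Of the 9, 1 had an unadjusted p under 0.05 in limma, as did 1499 of the 16502 genes. The larger fall in non-RGCs is therefore not shown to be particular to that fraction.

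Several values moved with Pax2. Its exons have the highest GC content of the 10 genes, 60.5%, and the log2 fold change fell with GC content over genes (Spearman's rho -0.72 across 12775 genes in RGCs and -0.49 across 12212 in non-RGCs, which are not independent replicates). Genes within 2.5 percentage points of that GC content had median log2 fold changes of -0.51 in RGCs and -0.43 in non-RGCs. Hence the Pax2 difference in RGCs was close to that of genes of like GC content, and in non-RGCs it was lower than their median. Of these genes, 239 of 1016 had a lower estimate than Pax2 in RGCs, and 1 of 965 in non-RGCs.

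Pax2 is also a gene of the kidney, and reads of kidney genes were present in WT and nearly absent in mKO libraries. Umod, the main protein of urine, had 28.4, 38.0 and 39.7 normalised reads in WT RGC and 28.9, 31.0 and 31.3 in WT non-RGC libraries, against 0 to 1.84 in the 6 mKO libraries. The sum of 5 kidney genes was 60.8 to 85.2 in WT RGCs and 64.7 to 68.7 in WT non-RGCs, and all 5 were at or under the floor of 3 reads in each mKO library. The 5 genes were chosen after their values were seen, and their part in the Pax2 difference was not tested.

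Other genes of the optic stalk and optic disc, 3 in all and also chosen after their values were seen, did not move alike. Vax1 had 174, 177 and 238 normalised reads in WT and 158, 182 and 157 in mKO non-RGC libraries, and it overlapped between genotypes in RGCs too. Vax2 had 833, 800.1 and 860.1 in WT and 549, 600.3 and 564 in mKO RGC libraries, which did not overlap, and it overlapped in non-RGCs. Ntn1, the guidance cue of the optic disc, overlapped in both fractions. The sum of the 3 genes was lower in every mKO library than in every WT library of its fraction, with 678.5 to 734 against 991 to 1168 in RGCs and 624 to 772 against 793 to 965.5 in non-RGCs. Most of each sum was Vax2, with means of 831 in WT and 571 in mKO RGCs, and 611.5 and 501 in non-RGCs. The sum therefore says little of the other genes, and in non-RGCs each of the 3 overlapped between genotypes on its own.

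**Figure D3:**
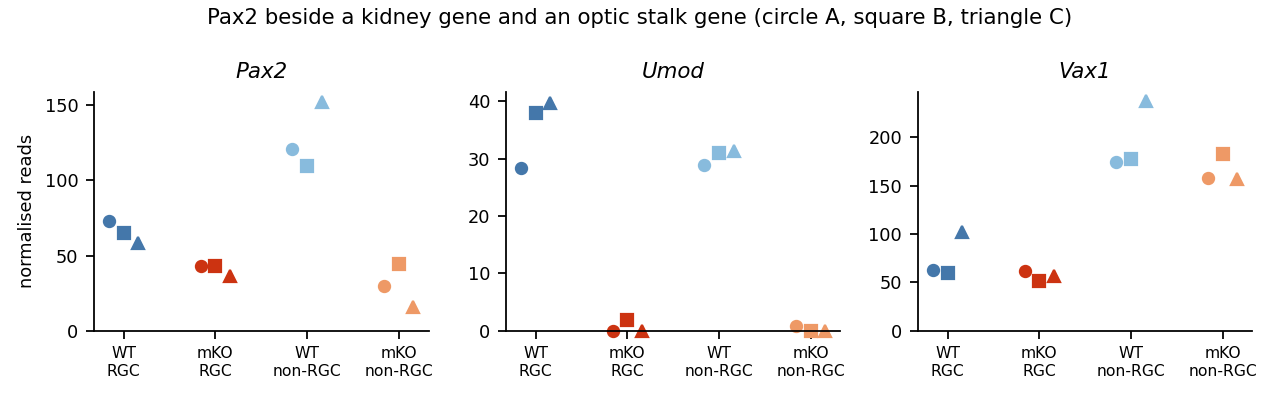
Normalised reads of Pax2, of the kidney gene Umod and of the optic stalk gene Vax1 in each library, with genotype and fraction on the horizontal axis and a symbol for each library letter. Pax2 is lower in every mKO library than in every WT library of its fraction, Umod is near 0 in mKO libraries of both fractions, and Vax1 overlaps between genotypes in non-RGCs (157 to 182 against 174 to 238).

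Gfap, the intermediate filament of mature and reactive astrocytes (chromosome 11, 102887336 to 102900912), had the highest estimate of the members in both fractions and did not pass. It had 45.6, 18.5 and 47.8 normalised reads in WT RGC libraries and 699, 35.0 and 59.3 in mKO RGC libraries. In the non-RGC fraction it had 47.8, 40.6 and 20.9 in WT and 250.4, 46.0 and 41.0 in mKO. One mKO library of each fraction stood far above all others, and the remaining mKO libraries overlapped with WT. The log2 fold change was 1.70 ± 1.05 (SE; adjusted p = 0.24 in limma) in RGCs and 1.16 ± 0.63 (adjusted p = 0.24) in non-RGCs. Without mKO RGC library A it was 0.40 (adjusted p = 0.58), and without mKO non-RGC library A 0.33 (adjusted p = 0.64).

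S100b, a calcium-binding protein of astrocytes (chromosome 10, 76253853 to 76261159), was low and had the same libraries at the top. It had 7.09, 9.77 and 7.0 normalised reads in WT and 37.5, 9.22 and 16 in mKO RGC libraries, and 12.6, 11.6 and 7.30 in WT against 23.9, 11.5 and 9.89 in mKO non-RGC libraries. The groups overlapped in both fractions (log2 fold change 1.09 ± 0.50, SE, adjusted p = 0.13 in RGCs, and 0.42 ± 0.45, adjusted p = 0.56 in non-RGCs, in limma). The last part of the gene lies under Dip2a on the opposite strand, and reads of the 2 genes cannot be told apart there without strand.

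Some other astrocyte genes were high in the same libraries. Of the 9 further astrocyte genes with a mean of at least 10, library A was the highest for 5 in mKO RGCs and for 6 in mKO non-RGCs. Such counts were not particular to these libraries, since library B was the highest for 5 of 9 in WT RGCs and in WT non-RGCs. How often library A was the highest over all genes was not counted. Mlc1, a membrane protein of astrocyte end-feet, had 91.6 normalised reads in mKO RGC library A against 15.7 and 19.8 in the other mKO RGC libraries, and Gja1, the gap junction protein connexin 43, had 174.5 against 71.9 and 67.7. In mKO non-RGC library A, Mlc1 had 75.5 against 56.6 and 36.7, and Gja1 248 against 188 and 171. Others went the other way: Slc1a2, a glutamate transporter, was lowest in mKO RGC library A (1352 against 1406 and 1471), and Ndrg2 was lowest in mKO non-RGC library A (367 against 375 and 480.1). The WT libraries ranged from 13.0 to 65.8 for Mlc1 and from 46.6 to 150.0 for Gja1. Library A of the mKO RGCs also held 498 normalised reads of Col6a3, a collagen of connective tissue, against 37.8 and 107 in the other mKO RGC libraries. WT RGC library B held 1329 of Col6a3 and WT non-RGC library B 269, and Gfap was 18.5 and 40.6 there. The mKO non-RGC library A held 6.94 of Col6a3 with its 250.4 of Gfap. Col6a3 was chosen after its values were seen, and its part in the Gfap values was not tested. Without WT RGC library B and mKO RGC library A together, an alternative added after the data were seen, the Gfap difference in RGCs was -0.03 (adjusted p = 0.95), that of Vim -0.65 (adjusted p = 0.048), and those of Glul and Pax2 no longer passed (-0.46, adjusted p = 0.072, and -0.70, adjusted p = 0.15).

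**Figure D4:**
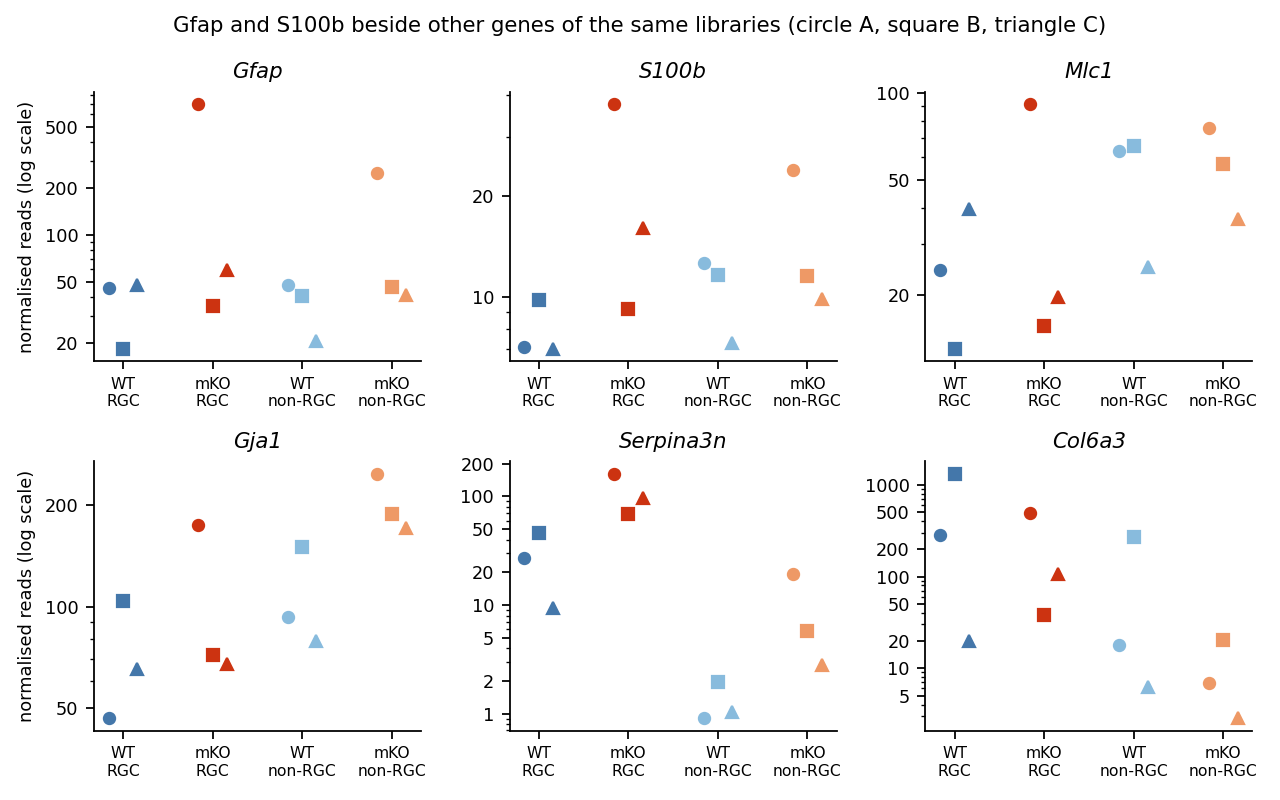
Normalised reads on log scales of Gfap and S100b, of the astrocyte genes Mlc1 and Gja1, of the reactive glia gene Serpina3n and of the connective tissue gene Col6a3 in each library, with a symbol for each library letter. mKO library A (circle) is the highest mKO library of its fraction for the first 5 genes, and Col6a3 is highest in WT RGC library B (1329).

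Aqp4 was not tested, since no group reached a mean of 10 normalised reads. It had 1, 3 and 2 reads in WT RGC libraries, at or under the floor of 3 reads, and 3, 7 and 4 in mKO RGC libraries. In non-RGCs it had 7, 6 and 6 reads in WT and 7, 7 and 5 in mKO, which overlapped, so that no difference was detectable at this depth.

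The rest of the Müller and progenitor-shared genes did not pass in non-RGCs. Slc1a3 had 2875, 3143 and 2733 normalised reads in WT and 2286, 2379 and 2444 in mKO, which did not overlap (log2 fold change -0.30 ± 0.11, SE; adjusted p = 0.095 in limma). Vim had 2071, 2249 and 2022 in WT and 1268, 1513 and 2033 in mKO (-0.42 ± 0.17; adjusted p = 0.12), and it passed without mKO non-RGC library C (-0.61, adjusted p = 0.026). Glul had 3117, 3315 and 3323 in WT and 2262, 2714 and 3594 in mKO (-0.21 ± 0.16; adjusted p = 0.39). The shallow library C was the highest of the mKO group for each of these 3 genes.

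Rlbp1 had 1060, 1238 and 449 normalised reads in WT non-RGC libraries and 681, 885 and 931 in mKO ones, so that WT library C lay below every mKO library. The log2 fold change was -0.02 ± 0.33 (SE; 95% interval -0.75 to 0.71; adjusted p = 0.97 in limma), and without WT non-RGC library C it was -0.47 (adjusted p = 0.10). Fabp7 and Aldh1l1 overlapped between genotypes, with log2 fold changes of -0.07 (95% interval -0.48 to 0.34) and 0.01 (95% interval -0.63 to 0.65).

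The non-RGC fraction against the RGC fraction shows where the glial genes were read. The libraries of both fractions were scaled together for this, since the authors scaled each fraction apart. In WT, 3 of the 9 genes tested were higher in non-RGCs and none lower, against 22.6% of 16502 genes that were higher and 26.4% that were lower. In mKO, 6 of 9 were higher and none lower, against 25.4% and 29.1%. Groups did not overlap, with non-RGC higher, for 6 of 9 in each genotype, against 27.8% of genes in WT and 32.6% in mKO.

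Slc1a3 was higher in non-RGCs in both genotypes, with 11.5, 12.5 and 21.4 RPKM in WT RGC and 30.7, 33.3 and 27.7 RPKM in WT non-RGC libraries. Its log2 fold change of non-RGC over RGC was 0.98 ± 0.17 (SE; adjusted p = 0.00031 in limma) in WT and 0.88 ± 0.17 (adjusted p = 0.00065) in mKO. Fabp7 was higher too, by 0.56 ± 0.17 in WT (adjusted p = 0.015) and 0.82 ± 0.17 in mKO (adjusted p = 0.0013). In WT the Fabp7 call was lost without WT RGC library A or B (adjusted p = 0.072 and 0.055) and with the GC trend removed (0.41, adjusted p = 0.098).

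Rlbp1 had the largest difference in mKO, with 10.9, 11.1 and 9.62 RPKM in RGC and 23.3, 30.4 and 31.2 RPKM in non-RGC libraries (log2 fold change 1.28 ± 0.30, SE; adjusted p = 0.0033 in limma). In WT its difference was 0.70 ± 0.30 (adjusted p = 0.075), and it passed without WT non-RGC library C (1.15, adjusted p = 0.00081) or WT RGC library C (0.94, adjusted p = 0.027). Glul, Vim and Aldh1l1 passed in mKO (0.49, 0.43 and 0.78; adjusted p = 0.0069, 0.020 and 0.017 in limma) and not in WT (0.26, 0.22 and 0.49; adjusted p = 0.12, 0.21 and 0.11). The test of the difference between genotypes was not passed by any of them. Without mKO RGC library A or mKO non-RGC library B the Aldh1l1 call in mKO was lost (adjusted p = 0.056 and 0.051), and without mKO RGC library C or mKO non-RGC library C that of Vim (adjusted p = 0.068 and 0.067).

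Pax2 was higher in non-RGCs in WT (log2 fold change 1.02 ± 0.32, SE; adjusted p = 0.017 in limma; 0.88 and adjusted p = 0.053 without WT non-RGC library C). In mKO its estimate had the opposite sign and did not pass (-0.48 ± 0.32; adjusted p = 0.22). It passed there without mKO non-RGC library B (-0.80, adjusted p = 0.048). Gfap and S100b did not pass in either genotype, and the 95% interval of Gfap ran from -1.96 to 2.11 in WT.

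**Figure D5:**
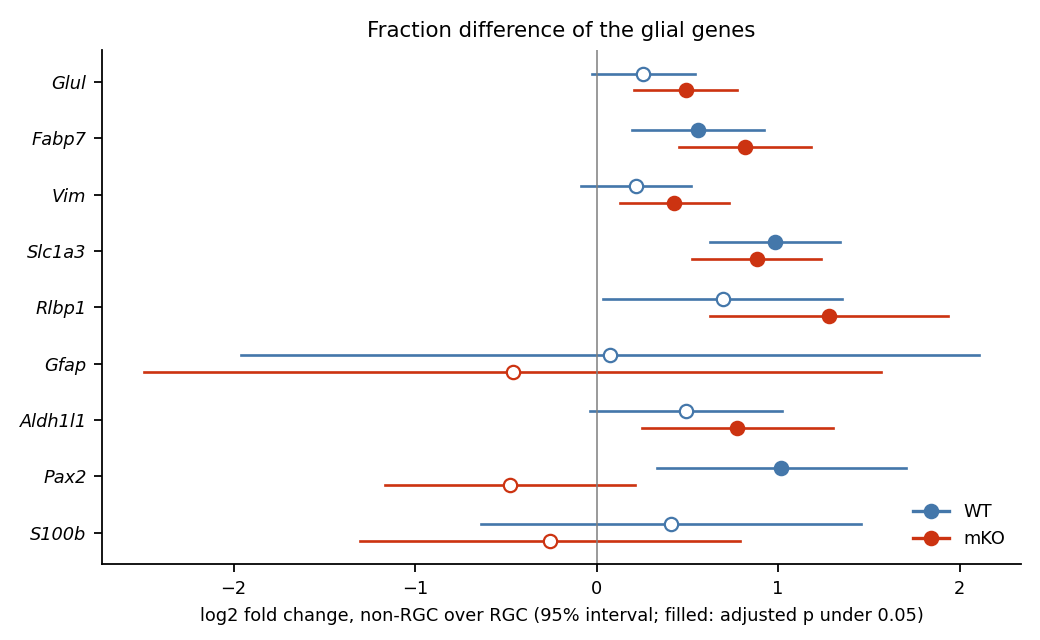
Log2 fold change of non-RGC over RGC with its 95% interval for the 9 glial genes tested, in WT and mKO; filled points have an adjusted p under 0.05 in limma. Slc1a3 and Fabp7 are filled in both genotypes, Pax2 in WT alone, and Rlbp1, Glul, Vim and Aldh1l1 in mKO alone.

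Further genes of the same cells were read from lists. Of 10 further astrocyte genes 9 were tested in RGCs, where 1 rose and 2 fell, against 16.3% and 21.2% of all genes. Nfia, a factor that starts gliogenesis, rose in mKO (log2 fold change 0.58 ± 0.19, SE; adjusted p = 0.049 in limma), and Aldoc, a glycolytic enzyme of astrocytes, and Ndrg2 fell (-0.49 ± 0.11, adjusted p = 0.012, and -0.38 ± 0.09, adjusted p = 0.017). With the GC trend removed none of the 3 passed (adjusted p = 0.31, 0.13 and 0.53), and leaving out single libraries, other than WT RGC library C, ended at least 1 of the calls each time. In non-RGCs none of the 9 passed, with 2 higher and 1 lower at an unadjusted p under 0.05 in limma. Of all 15326 genes tested there, 4580 had such a p. Gjb6, connexin 30, had at most 1 read in any library. Between fractions, 3 of the 9 were higher in non-RGCs in each genotype, and 2, Aldoc and Ndrg2, were lower. Their WT means were 477 and 1006 normalised reads in RGCs and 206 and 516 in non-RGCs. Of all genes, 22.6% were higher and 26.4% lower in WT, and 25.4% and 29.1% in mKO.

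Of 10 further Müller and radial glia genes, 5 fell in mKO RGCs and none rose, against 21.2% and 16.3% of all genes, with a median log2 fold change of -0.47. Hes5, a Notch target that keeps progenitors and glia from becoming neurons, fell by 0.79 on the log2 scale (adjusted p = 0.0079 in limma), Sox9, a factor of progenitors and Müller glia, by 0.60 (adjusted p = 0.018), Dkk3 by 0.53 (adjusted p = 0.019) and Hes1 by 0.47 (adjusted p = 0.0098), and Car2 was the fifth. With the GC trend removed the calls of Hes5, Dkk3 and Hes1 were lost (adjusted p = 0.60, 0.081 and 0.093), and without mKO RGC library A or C those of Sox9 and Dkk3 (adjusted p = 0.062 to 0.069), Dkk3 also without mKO RGC library B (0.051). In non-RGCs Clu, clusterin, rose by 0.68 on the log2 scale (adjusted p = 0.044 in limma) and Sox8 fell by 0.48 (adjusted p = 0.029). Of all genes there, 4.18% rose and 6.43% fell. Clu lost its call without each library in turn (adjusted p = 0.061 to 0.12), and Sox8 without library A or B of either genotype (0.057 to 0.13). All 10 differed between fractions in both genotypes, 9 of them higher in non-RGCs and Clu higher in RGCs; of all genes, 22.6% were higher and 26.4% lower in WT, and 25.4% and 29.1% in mKO.

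Of 12 progenitor genes, of which 3 stand also in the list of Müller and radial glia genes, 6 fell in mKO RGCs, against 21.2% of all genes, and 2 in mKO non-RGCs, against 6.43%. Notch1 fell by 0.76 on the log2 scale in RGCs (adjusted p = 0.0043 in limma) and by 1.13 in non-RGCs (adjusted p = 0.0048), and Lhx2, a factor of retinal progenitors, by 0.68 (adjusted p = 0.029) and 0.59 (adjusted p = 0.030). Rax, a factor of the eye field, fell by 0.87 in RGCs (adjusted p = 0.0019). The sum of the 12 was 37365 to 46034 normalised reads in WT and 26885 to 30910 in mKO non-RGCs. The Notch1 and Lhx2 calls in RGCs were lost with the GC trend removed (adjusted p = 0.064 and 0.58), and Lhx2 also lost its call without each single mKO RGC library and, in non-RGCs, without each library other than mKO non-RGC library C.

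Of 10 genes of reactive glia, 6 were tested in RGCs and 5 in non-RGCs. In RGCs 1 rose and none fell, against 16.3% and 21.2% of all genes. In non-RGCs none rose and 1 fell, against 4.18% and 6.43%. Serpina3n, a protease inhibitor raised in reactive astrocytes, had 27.4, 45.6 and 9.34 normalised reads in WT and 162, 68.2 and 96.0 in mKO RGC libraries, which did not overlap. It rose by 2.11 ± 0.58 (SE, log2; adjusted p = 0.026 in limma), and its highest value was again that of mKO RGC library A. The call was lost without WT RGC library A (adjusted p = 0.054), mKO RGC library A (0.093) or mKO RGC library C (0.076). In non-RGCs Socs3, an inhibitor of cytokine signalling, fell by 0.89 on the log2 scale (adjusted p = 0.041), a call that was lost without WT non-RGC library B or any single mKO library (adjusted p = 0.078 to 0.11). Lcn2, Timp1 and Steap4, which are often used as markers of reactive astrocytes, were low, with 0 to 6.77, 3.61 to 13.9 and 0 to 44.5 normalised reads over the 12 libraries. Cp and Stat3 were not low, with group means of 1105 to 2525 and 882 to 1110. In non-RGCs 4 of the 5 genes tested had a positive estimate and 1 a negative one. Timp1 (10.55 to 13.9 against 3.61 to 9.68) and Cp (2448 to 2566 against 1957 to 2339) were there higher in each mKO than in each WT library. Neither passed, and the share of all genes with this pattern was not counted.

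Markers of other cells were read beside these. None of the oligodendrocyte lineage genes passed in either fraction (0 and 1 at an unadjusted p under 0.05 in RGCs and non-RGCs), and none of the microglia genes (3 and 0). Such a p in limma was had by 7658 of 16085 genes in RGCs and 4580 of 15326 in non-RGCs. In RGCs 10 of 12 RGC genes fell, against 21.2% of all genes, led by Thy1 (-0.73, adjusted p = 0.00065 in limma), Tubb3, Pou4f1 and Sncg. With GC and level trends removed these 4 did not pass, and the estimates of Tubb3 (0.012) and Sncg (0.085) changed sign. Of 6 endothelial and pericyte genes, 1 fell in RGCs, against 21.2% of all genes. This was Pdgfrb of pericytes (-0.84, adjusted p = 0.041 in limma), and its call was lost without WT RGC library B or mKO RGC library B or C. In non-RGCs 8 of 12 RGC genes rose, against 4.18% of all genes, while Tubb3 was lower in each mKO than in each WT library. The rises were led by Thy1 (3.86, adjusted p = 0.0048), Pou4f3 (3.02, adjusted p = 0.029), Pou4f2 (1.72, adjusted p = 0.012) and Sncg (1.63, adjusted p = 0.0062). Pou4f2 lost its call without mKO non-RGC library B (adjusted p = 0.071), and Pou4f3 without any single library other than WT non-RGC library C (0.051 to 0.11). Reads of RGC genes thus differed between genotypes in both fractions, and their part in the differences of the glial genes was not tested.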

How the data were processed

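RNA-seq tables of RGC and non-RGC fractions of P0 retina were used. The authors selected poly-A RNA, aligned the single-end reads with STAR (2.3.1z4 in the submitters' processing notes) to the mm10 genome, counted them with featureCounts and normalized them with DESeq size factors. The deposited signal values used here are normalised counts averaged by the authors over the 3 libraries of a group; the deposited ratio, log2 and p-value columns hold the authors' own comparisons and were not used. Unused columns of per-sample values: 0 were present in the tables. Whether strand was used in counting is not given in the sources used here.

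The reads of each library were recovered as the single combination of whole reads that gives each 15-digit mean, which was found for 100% of genes with reads in each group. With slightly shifted size factors, a combination was found for 0 of 1000 genes per group. This control was run on genes of low to moderate mean, and genes of high mean were not tried. Because the size factors are the authors', values were divided by them and log2(value + 1) was tested with limma (3.58.1, R 4.3.3; mean-variance trend, Benjamini-Hochberg, two-sided, adjusted p under 0.05) on genes whose mean reached 10 in 1 of the groups compared. The pseudocount understates the change of low genes. Fractions were compared in 1 fit of 12 libraries with joint size factors, on genes that reached this mean in any group. Replicates came from separate RNA extractions, and nothing says from which pups, so p-values measure the spread between these libraries. With 3 against 3 the smallest exact permutation p is 0.1, so none was run on single genes. No pair of libraries agreed within counting noise. Trends with GC content used exons of GENCODE M21. limma was tested on simulated data.

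All 10 members are named; of the other lists, genes that passed in a genotype comparison are named, up to 4 per list by size. Members and lists were chosen with earlier results of these data known. Alternatives were the pseudocount (0.5), no filter, a mean of at least 50, scaling to library totals or upper quartiles, removal of trends with GC content or with GC content and level, leaving out each library, and p under 0.05 with a fold of at least 1.5.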

Additional observations from a re-analysis of the deposited data

Results flagged for a closer look

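No glial gene was marked by the comparison of the genotype effect between the fractions. Of the other lists, 5 RGC genes passed that test in limma, with the effect in RGCs below that in non-RGCs. The difference (log2, RGC effect minus non-RGC effect) was -4.60 for Thy1 (adjusted p = 0.0012), -2.21 for Sncg (adjusted p = 0.00084), -2.16 for Pou4f2 (adjusted p = 0.018), -1.48 for Nefl (adjusted p = 0.0019) and -1.05 for Nefm (adjusted p = 0.027). Groups of 3 libraries are too small for a test of single outlying libraries.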

How the results depend on the processing

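No paired analysis was possible because the columns carry no replicate numbers. Counts of all genes called were 6027 in RGCs and 1626 in non-RGCs. In RGCs they were 2238 with the GC trend removed, 904 with GC and level trends removed, 1817 without WT RGC library B and mKO RGC library A, and 2615 at p under 0.05 with a fold of at least 1.5; in non-RGCs they were 231 and 264 with the trends removed. Scaling to library totals moved the median of all genes to 0.12 in RGCs and 0.15 in non-RGCs and turned the split from 2622 higher and 3405 lower to 3857 and 2238 in RGCs, and from 641 and 985 to 1351 and 454 in non-RGCs; it raised the calls for the difference between fractions from 16 to 26. Leaving out single libraries gave 3770 to 8184 calls in RGCs (3822 without mKO library A, 3770 without C), 141 to 1614 in non-RGCs (819 and 387 without WT library A and B, 141 without mKO library B) and 7 to 140 for the difference between fractions (7 without WT RGC library A or B or mKO RGC library A or B, 9 without mKO RGC library C, 31 without WT non-RGC library C, 140 without mKO non-RGC library A).

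Of the glial genes, 3 were called in RGCs, but 1, Vim, both with GC and level trends removed and without WT RGC library B and mKO RGC library A. In non-RGCs none was called with the GC trend removed, where Pax2 had an adjusted p = 0.059, and 3 were called between fractions in WT but 5 with GC and level trends removed. Without single libraries 2 to 4 were called in RGCs, 1 to 2 in non-RGCs (2 without mKO library C), 2 to 4 between fractions in WT, 5 to 6 in mKO and 0 for the difference between fractions. With GC and level trends removed, Tubb3 (0.012) and Sncg (0.085) changed sign in RGCs. The cause of these changes was not tested. Depth limits Aqp4 and S100b, of which single libraries held 1 to 7 and 6 to 43 reads.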
